A study of Mus musculus with 27 samples.

Results

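Inversional joins between the Sμ switch region and the core of Sα, or the DNA below it, were examined in a mouse B-lymphoma line, CH12F3, which can be induced to switch its antibody class from IgM to IgA. They were chosen as joins on chromosome 12 whose prey began between 114489501 and 114502828 (mm9) and ran toward higher coordinates. There were 8413 of them among the 82383 joins of both orientations in that interval (10.2%), and among 193201 joins in the whole series. The other 73970 joins of the interval were deletional and served as the comparison. The core (114496668 to 114502828, 6161 bp) was the shortest stretch holding 90% of the joins of a 20000 bp window around Sα, and the remaining 7167 bp of the interval lay below it, farther from the bait.

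The joins came from LAM-HTGTS, which primes at 1 locus (the bait, at the Iμ promoter beside Sμ) and sequences into the prey DNA joined to it. All 27 libraries were made from genomic DNA of cells stimulated for 72 h with IL-4, anti-CD40 and TGFβ. They were 3 libraries each of 9 clones: the WT line, 2 PAXX-/- clones, 2 XLF-/- clones, 2 XLF-/-PAXX-/- clones and 2 Ligase4-/- clones. Per the design text, the PAXX-/- and XLF-/- clones and 1 Ligase4-/- clone were made from the parental CH12F3 line, the other Ligase4-/- clone was obtained from elsewhere, and both XLF-/-PAXX-/- clones descended from 1 of the PAXX-/- clones. The 27 libraries held 3610 to 14524 joins, of which 45 to 849 were inversional joins of the interval. Only the PAXX-/- and XLF-/- libraries shared sequencing runs, so for every other pair of genotypes run and genotype cannot be told apart.

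Class switch recombination replaces the constant region of an antibody by joining breaks that the deaminase AID starts in 2 switch regions. The productive product deletes the DNA between the breaks. The same ends can also be joined in the other order, which turns the intervening DNA around, and such an inversional join yields no switched transcript. Classical end joining seals breaks with DNA ligase 4, and XLF and PAXX are accessory factors of that step; joins made without it often use short stretches of identical bases, called microhomology. Switch regions are repetitive and rich in AGCT, a preferred site of AID.

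Examples of inversional joins show how the structures were read. The overlap is the number of read bases that both the bait and the prey alignment claim: above 0 it is microhomology, at 0 the join is direct, and below 0 bases were inserted. Each line gives up to 20 bases of bait followed by prey, 5′ to 3′ as sequenced, and was the join of that overlap found in the most libraries. In the direct join the prey is in capitals, and in the others the shared bases are.
Direct join, prey from 114499994: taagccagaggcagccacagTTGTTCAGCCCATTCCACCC
Overlap of 1 base, prey from 114502014: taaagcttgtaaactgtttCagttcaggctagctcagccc
Overlap of 2 bases, prey from 114499933: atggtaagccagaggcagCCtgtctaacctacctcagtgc
Overlap of 4 bases, prey from 114499617: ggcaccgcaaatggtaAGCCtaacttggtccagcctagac
The direct join was found in 4 libraries of 2 clones. The join with 4 shared bases, AGCC, was found in 6 libraries of 5 clones.

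Most inversional joins lay in the AGCT-rich core of Sα, as did most deletional joins. The 500 bp from 114499501 to 114500000 held 15.1% of inversional and 13.2% of deletional joins on average over the clones. The 100 bp with the most inversional joins, 114499896 to 114499995 on chromosome 12 (plus strand, rebuilt from the deposited mm9 windows around each junction), held 5.28% of them and 4 copies of AGCT, shown in capitals.
Densest 100 bp: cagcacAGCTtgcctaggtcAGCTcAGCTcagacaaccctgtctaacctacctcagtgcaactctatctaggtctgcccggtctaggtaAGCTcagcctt

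The inversional share of the interval's joins was low in WT and PAXX-/- cells and higher in cells lacking XLF or ligase 4. The WT libraries had 4.08%, 5.24% and 4.58%. PAXX-/- libraries ranged from 2.65% to 3.60% (median 3.11%, n = 6), all of them below every WT library. XLF-/- libraries ranged from 8.50% to 12.8% (median 11.8%, n = 6). XLF-/-PAXX-/- libraries had 13.6% ± 0.926 (SD, n = 6), with a lowest value of 12.6% and a highest of 14.9%. Ligase4-/- libraries had 12.9% ± 1.37 (SD, n = 6), from 11.2% to 14.4%. The 18 libraries of these 3 genotypes did not overlap with WT or PAXX-/-.

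Compared by library, each mutant genotype differed from the same 3 WT libraries, with p = 0.0119 (exact two-sided permutation, the smallest that 84 splits can give) and a Benjamini-Hochberg adjusted p of 0.025. PAXX-/- fell by 1.53 percentage points (95% interval -2.21 to -0.846). XLF-/- was higher by 6.56 points (3.83 to 9.17), XLF-/-PAXX-/- by 8.93 points (7.49 to 10.3) and Ligase4-/- by 8.30 points (6.09 to 10.3). With any 1 WT library left out these 4 calls were lost, at adjusted p = 0.0714 to 0.075 by exact permutation, because 2 WT libraries allow no p below 0.0357. The PAXX-/- difference was -1.40 points and lost its call when only bait ends before position 56 were used (adjusted p = 0.10, exact permutation). It was also lost, at -0.84 points, among joins at or below 114500015 (adjusted p = 0.241, exact permutation).

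Among the mutants, XLF-/- exceeded PAXX-/- by 8.09 points (6.43 to 9.49; exact permutation over 6 against 6 libraries, adjusted p = 0.0227). The difference was 9.34 points within the first shared sequencing run and 7.47 points within the second. XLF-/-PAXX-/- exceeded XLF-/- by 2.37 points (0.648 to 4.20; exact permutation, adjusted p = 0.025), a call lost at 2.05 points with bait ends before position 56 (adjusted p = 0.0727, exact permutation) and at 1.47 points among joins at or below 114500015 (adjusted p = 0.0966, exact permutation). XLF-/-PAXX-/- and Ligase4-/- differed by 0.627 points, with an interval from -0.904 to 2.15 (adjusted p = 0.457, exact permutation). These comparisons treat libraries of a clone as replicates. Over the 9 clones, genotype took up 96.1% of the sum of squares (p = 0.0169, exact permutation over 945 splits; adjusted p = 0.0623), which missed the threshold of 0.05. The 4 clones without XLF had 12.4% and the 3 clones of WT and PAXX-/- 3.61%, a complete separation whose exact permutation p of 0.0286 was the smallest that 35 splits allow (adjusted p = 0.0623).

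**Figure D1:**
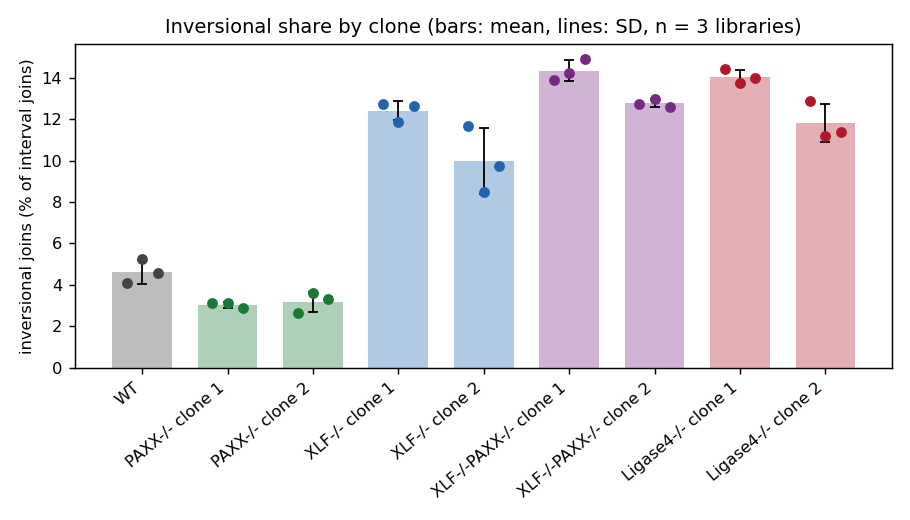
Percent of the interval's joins that were inversional, for each of the 9 clones. Points are libraries, bars are means and lines are SD over 3 libraries; WT lies between 4.08% and 5.24%, both PAXX-/- clones lie below it, and the 6 clones without XLF or ligase 4 lie at 8.50% or above.

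Inversional joins carried more and longer microhomology than deletional joins of the same libraries and interval. Their mean microhomology was 2.95 bases against 2.64, a difference of 0.305 bases averaged over the 9 clones. It was positive in 9 of 9 clones and 27 of 27 libraries. Microhomology was present in 72.0% of inversional and 66.4% of deletional joins, a difference of 5.54 points that was positive in 9 clones and 25 libraries. Insertions were rarer among inversional joins, 19.2% against 23.6%; this share fell by 4.41 points, with the inversional value lower in 9 of 9 clones and in 26 of 27 libraries. Each of these 3 differences had p = 0.00391 (exact sign-flip permutation over 9 clones, the smallest that 512 patterns give) and an adjusted p of 0.0234, and each passed under every alternative tried.

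Direct joins made up 8.85% of inversional and 9.98% of deletional joins. That difference of -1.12 points missed the threshold (exact sign-flip p = 0.0352, adjusted p = 0.0649) and had its sign in 8 of 9 clones; the exception was PAXX-/- clone 1, at 0.678 points. It passed, at -2.29 points, when insertions were left out of the denominator (adjusted p = 0.0156, exact permutation) and, at -1.55 points, in the core alone (adjusted p = 0.0156, exact permutation). None of the inversional minus deletional differences passed the test between genotypes. For microhomology length that test gave 20.3% of the sum of squares (p = 0.952, exact permutation, adjusted p = 0.965), and for the microhomology share 89.2% (p = 0.0349, adjusted p = 0.0649).

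**Figure D2:**
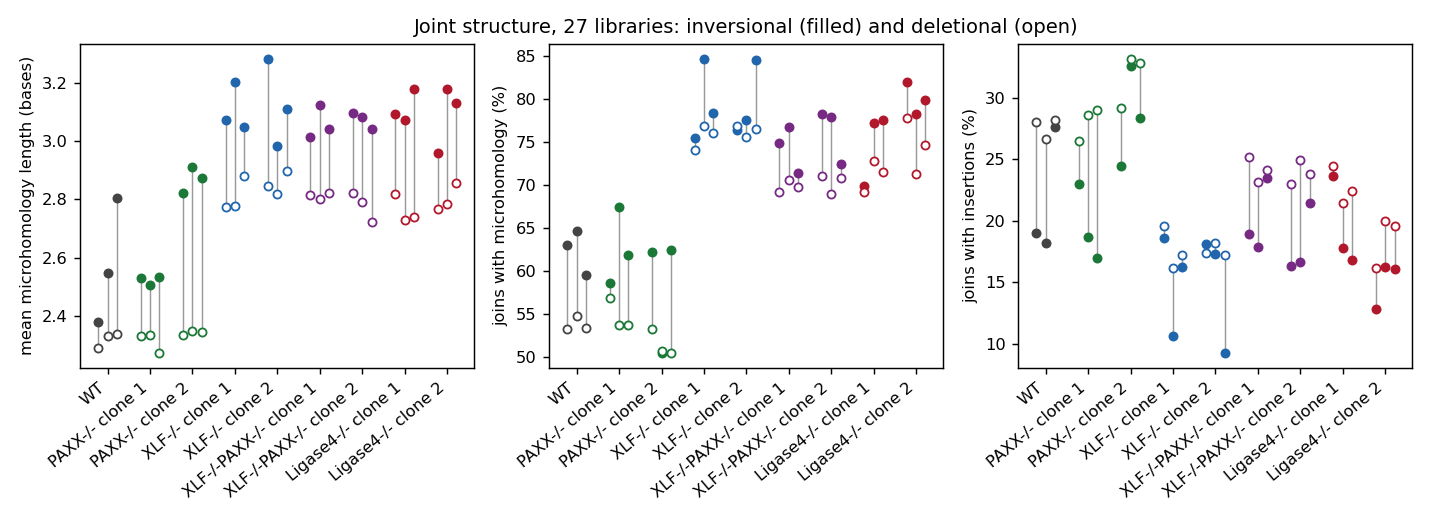
Mean microhomology length in bases (left), percent of joins with microhomology (middle) and percent with insertions (right) in each library, for inversional (filled) and deletional joins (open) of the same interval. Filled points lie above open ones in 27 of 27 libraries on the left and 25 in the middle, and below them in 26 libraries on the right; vertical axes do not start at 0.

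Among the inversional joins themselves, direct joins were frequent in WT and PAXX-/- cells and rare in the others. The direct share was 17.9%, 17.2% and 12.8% in the WT libraries, 9.09% to 21.2% in PAXX-/- (median 15.3%, n = 6) and 4.67% to 6.17% in XLF-/- (median 5.46%, n = 6). It was 5.62% ± 0.420 (SD, n = 6) in XLF-/-PAXX-/- and 5.33% ± 0.768 (SD, n = 6) in Ligase4-/-. The lowest PAXX-/- library stood above the highest library of the 3 other mutants. Against WT, the direct share fell by 10.5 points in XLF-/- (-12.5 to -7.36), by 10.3 points in XLF-/-PAXX-/- (-12.4 to -7.32) and by 10.6 points in Ligase4-/- (-12.8 to -7.50), each with adjusted p = 0.025 (exact permutation by library). With bait ends before position 56 all 3 calls were lost, at -8.37, -8.23 and -6.79 points (adjusted p = 0.0882, 0.0714 and 0.10, exact permutation). They were also lost without any 1 WT library. PAXX-/- differed from WT by -0.486 points, with a wide interval from -7.55 to 6.09. Deletional joins divided the genotypes in the same way, with direct shares of 18.5% in WT and 16.9% in PAXX-/-. XLF-/-, XLF-/-PAXX-/- and Ligase4-/- had 6.40%, 5.90% and 6.43% of them direct. No genotype test was made on deletional joins alone.

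Microhomology rose where direct joins fell. It was present in 63.1%, 64.6% and 59.6% of inversional joins in the WT libraries and in 50.6% to 67.5% in PAXX-/- (median 62.0%, n = 6). XLF-/- libraries had 75.4% to 84.7% (median 78.0%, n = 6). The increase over WT was 17.1 points in XLF-/- (10.8 to 24.99), 12.8 points in XLF-/-PAXX-/- (7.84 to 18.05) and 14.99 points in Ligase4-/- (8.04 to 21.6), each with adjusted p = 0.025 (exact permutation by library). Among joins at or below 114500015 none of these 3 increases passed, at 8.92, 3.25 and 5.93 points (adjusted p = 0.111, 0.512 and 0.375, exact permutation), and none passed without any 1 WT library. With bait ends before position 56 the Ligase4-/- increase was 8.58 points and did not pass (adjusted p = 0.114, exact permutation). Among deletional joins the microhomology share was likewise lower in WT (53.8%) and PAXX-/- (53.2%). It was 76.0% in XLF-/-, 70.1% in XLF-/-PAXX-/- and 72.9% in Ligase4-/-.

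The microhomology of inversional joins was 2.58 bases ± 0.215 (SD, n = 3) in WT and 2.70 ± 0.191 (SD, n = 6) in PAXX-/-. The libraries of the 2 PAXX-/- clones did not overlap, with 2.52 bases ± 0.0151 in clone 1 and 2.87 ± 0.045 in clone 2 (SD, n = 3 for each clone). Mean microhomology was 3.12 bases in XLF-/-, 3.07 in XLF-/-PAXX-/- and 3.10 in Ligase4-/-. The gain over WT was 0.541 bases (0.295 to 0.782), 0.492 bases (0.281 to 0.665) and 0.527 bases (0.328 to 0.718) in that order, each with adjusted p = 0.025 (exact permutation by library) and each lost without any 1 WT library. XLF-/- exceeded PAXX-/- by 0.421 bases (adjusted p = 0.0227, exact permutation), and by 0.502 and 0.381 bases within the shared runs. That call was lost with bait ends before position 56 (0.554 bases, adjusted p = 0.0559, exact permutation) and among joins at or below 114500015 (0.286 bases, adjusted p = 0.202, exact permutation). Deletional joins showed the same order, with 2.32 bases in WT and 2.33 in PAXX-/-. They had 2.83 bases in XLF-/-, 2.80 in XLF-/-PAXX-/- and 2.78 in Ligase4-/-.

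XLF-/-, XLF-/-PAXX-/- and Ligase4-/- were close to each other in these measures of inversional joins. The difference between XLF-/-PAXX-/- and Ligase4-/- was 0.281 points for the direct share (-0.512 to 1.09), -2.17 points for the microhomology share (-6.41 to 2.48) and -0.0355 bases for microhomology length (-0.114 to 0.0507). Between XLF-/-PAXX-/- and XLF-/- the microhomology share differed by -4.23 points (-8.95 to 0.474; adjusted p = 0.133, exact permutation). Over the 9 clones the genotype test gave 95.8% of the sum of squares for the microhomology share (p = 0.0265, adjusted p = 0.0623, exact permutation) and 94.7% for the direct share (p = 0.0466, adjusted p = 0.0798), so neither passed. For microhomology length it gave 86.9% (p = 0.129, adjusted p = 0.182, exact permutation), which became 99.8% and passed without PAXX-/- clone 1 (adjusted p = 0.0312) and 99.9% without PAXX-/- clone 2 (adjusted p = 0.0375).

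Inversional joins peaked at 2 shared bases in every clone. Deletional joins peaked there in XLF-/-, XLF-/-PAXX-/- and Ligase4-/- cells, but at 1 shared base in WT and PAXX-/- cells. The 2 orientations also parted at 4 or more shared bases. An overlap of 4 or more bases was found in 13.2% of WT inversional joins, in 14.8% and 17.3% of those of the PAXX-/- clones, and in 26.1% to 29.7% of those of the other 6 clones. Deletional joins had 10.1% in WT, 9.66% and 9.17% in PAXX-/- and 17.5% to 19.8% in the others. The inversional value was the higher one in every clone, by 3.09 points in WT and by as much as 10.4 points in Ligase4-/- clone 1. At exactly 4 bases the mean over clones was 14.0% of inversional and 9.21% of deletional joins. Conversely, an overlap of 1 base was found in 11.2% of inversional and 13.8% of deletional joins. The longest microhomology among inversional joins was 13 bases. The longest among deletional joins was 19 bases. Inserted stretches had a median of 2.5 bases in WT inversional joins and 3 bases in each other clone.

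**Figure D3:**
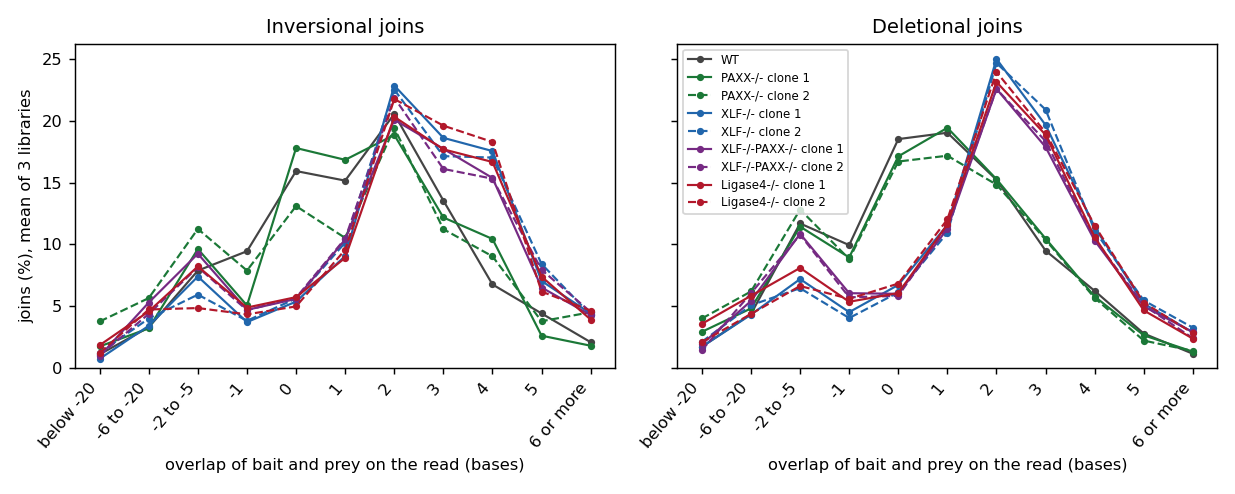
Percent of joins by overlap of bait and prey in bases (negative values are insertions) for inversional (left) and deletional joins (right), each point the mean of 3 libraries of a clone. WT and PAXX-/- lines stand higher at 0 and 1 in both panels, and at 4 shared bases the inversional lines of the other 6 clones reach 15.3% to 18.3% against 10.3% to 11.5% for deletional joins.

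The bases shared differed with orientation. Among inversional joins with exactly 4 shared bases, CCAG made up 18.3%, AGCC 17.0% and CAGC 16.8% on average over the clones, whereas the same 3 words made up 3.24%, 1.76% and 1.60% among deletional joins. The inversional values varied between clones. CCAG ranged from 4.76% to 25.9%, with 5.26% in WT, AGCC from 11.8% to 26.3% and CAGC from 11.3% to 31.6%. The highest deletional clones had 4.70%, 2.47% and 2.04% of these words. GCTG, the reverse complement of CAGC, led among deletional joins with 20.7%, followed by AGGC with 11.98%, and these made up 1.68% and 3.44% among inversional joins. AGCT reads the same on both strands and made up 6.75% of inversional and 9.62% of deletional 4-base overlaps. The germline of the interval differs in the same way. Read in the direction of an inversional prey, CCAG, AGCC and CAGC stood at 2.81%, 2.56% and 3.46% of core positions, and read in the direction of a deletional prey at 0.552%, 0.373% and 0.325%. C made up 33.1% and G 20.1% of the plus strand of the core. The words named here, like the densest 100 bp shown above, were chosen after their counts were seen, and no test was made on them.

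Within the interval, inversional joins lay nearer to the bait than deletional joins in most libraries. Their median position in WT was 114500599, against 114500087 for deletional joins, and the library medians differed by 503 bp ± 226 (SD, n = 3). In XLF-/- clone 1 the difference was 638 bp ± 69.4 (SD, n = 3), in XLF-/-PAXX-/- clone 1 it was 712 bp ± 68.5 (SD, n = 3) and in Ligase4-/- clone 1 it was 821 bp ± 109 (SD, n = 3). PAXX-/- clone 2 stood apart with 26.2 bp ± 175 (SD, n = 3), where 1 of 3 libraries had the higher inversional median. PAXX-/- clone 1 had it in 2 of 3 libraries, and the other 7 clones in 3 of 3.

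The 3 densest 500 bp stretches of inversional joins were 114499501 to 114500000, 114501001 to 114501500 and 114501501 to 114502000. These rank highest on average over the clones. The first held from 10.1% (Ligase4-/- clone 1) to 17.3% (XLF-/- clone 2) of a clone's inversional joins, with 12.996% in WT. In WT the largest share, 16.6%, lay between 114500501 and 114501000, where the 6 clones without XLF or ligase 4 had 4.81% to 6.41%. Ligase4-/- clone 1 stood apart, with 18.7% of its inversional joins between 114500001 and 114500500, where the remaining clones had 5.67% to 12.6%.

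The inversional share was not even along the core. With the core cut into 3 equal parts, it was in the part nearest the bait (upper, 114500776 to 114502828) 7.22% ± 1.26 (SD, n = 3) in WT, against 3.42% ± 0.355 in the middle part and 3.61% ± 1.44 in the lower part. In PAXX-/- the upper part had 3.97% ± 0.580 and 3.62% ± 0.641 in clones 1 and 2. XLF-/- had 24.2% ± 0.975 and 19.2% ± 4.15 there, XLF-/-PAXX-/- 27.9% ± 2.38 and 27.6% ± 0.653, and Ligase4-/- 33.0% ± 1.66 and 25.1% ± 6.58 (SD, n = 3 for each clone). The lower part of the same 6 clones had 6.79% to 8.67%. In every clone the upper part had the highest mean inversional share of the 3. The DNA below the core is outside these 3 parts. There the share was 5.79% ± 1.64 in WT, and 5.22% ± 0.551 and 7.43% ± 3.58 in PAXX-/- clones 1 and 2 (SD, n = 3 for each clone). Both PAXX-/- values exceeded those of their upper parts. These values of WT and of PAXX-/- clones 1 and 2 rest on 10, 19 and 15 inversional joins. The other 6 clones had 8.98% to 12.7% below the core, between their lower and upper parts. In the last stretch, 114502501 to 114502828, inversional joins were 10.3% of joins in WT, 3.67% and 3.33% in PAXX-/-, and 36.6% to 50.2% in the 6 other clones. The values of WT and of PAXX-/- clones 1 and 2 there rest on 10, 9 and 5 inversional joins. These positional values were not planned as tests and are given as a description.

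**Figure D4:**
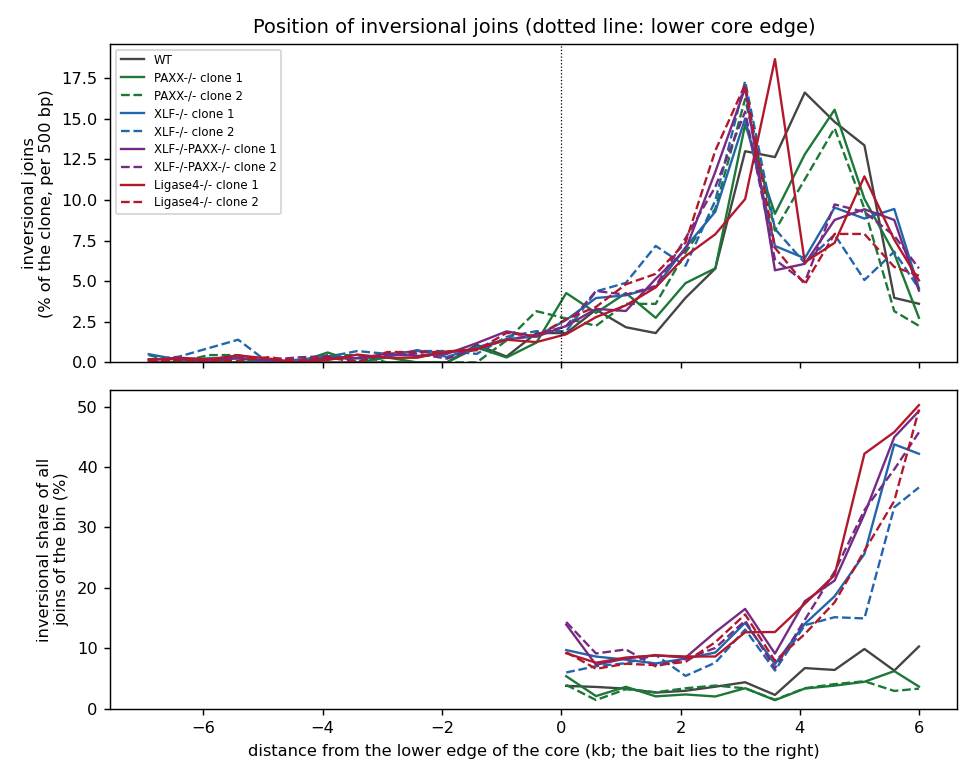
Inversional joins per 500 bp as a percent of the inversional joins of each clone (top) and the inversional percent of all joins of each 500 bp stretch of the core (bottom), against the distance in kb from the lower core edge, with the bait to the right. In the bottom panel the 6 clones without XLF or ligase 4 climb to 36.6% to 50.2% at the right edge, while WT ends at 10.3% and the PAXX-/- clones at 3.67% and 3.33%.

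Below the core lay 3.57%, 2.02% and 5.32% of the inversional joins in the WT libraries. The share was 6.81% ± 3.24 (SD, n = 6) in PAXX-/-, 9.47% ± 2.06 in XLF-/-, 7.34% ± 1.58 in XLF-/-PAXX-/- and 7.58% ± 2.39 in Ligase4-/- (SD, n = 6). XLF-/- exceeded WT by 5.84 points (2.36 to 9.29; adjusted p = 0.025, exact permutation), XLF-/-PAXX-/- by 3.70 points (1.09 to 6.33; adjusted p = 0.0455) and Ligase4-/- by 3.94 points (0.543 to 7.82; adjusted p = 0.025), while PAXX-/- differed by 3.18 points with an interval from -1.16 to 7.75. These 3 calls did not hold up across settings. All were lost without any 1 WT library, with prey of at least 50 bases (adjusted p = 0.05, 0.0682 and 0.0962, exact permutation) and among joins at or below 114500015 (5.46, 2.16 and 3.85 points; adjusted p = 0.159, 0.581 and 0.383, exact permutation). Bait ends before position 56 ended the calls for XLF-/- and XLF-/-PAXX-/- (adjusted p = 0.10 and 0.114, exact permutation), each position once ended that for XLF-/-PAXX-/-, and collapsed lines that for Ligase4-/- (adjusted p = 0.0682 for each, exact permutation). Of 9 settings that left out 1 library, XLF-/-PAXX-/- passed in 1 (without library 1 of clone 2) and Ligase4-/- in 3 (without library 3 of clone 1, or library 2 or 3 of clone 2). Over the 9 clones the genotype test did not pass (77.8% of the spread, p = 0.091 by exact permutation, adjusted p = 0.137). Deletional joins also lay below the core more often in these 3 genotypes. Their share was 2.74% ± 0.341 (SD, n = 3) in WT and 3.17% ± 0.300 (SD, n = 6) in PAXX-/-. It was 9.30% ± 0.911 in XLF-/-, 10.2% ± 1.07 in XLF-/-PAXX-/- and 8.92% ± 1.76 in Ligase4-/- (SD, n = 6). No genotype test was made on deletional joins alone.

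Inversional and deletional joins lay below the core about equally often over all clones, 7.34% against 7.32%, a difference of 0.0239 points that changed sign between settings (exact sign-flip p = 0.965). The PAXX-/- clones were at 2.49 and 4.78 points and WT at 0.901, XLF-/-PAXX-/- clones at -2.50 and -3.13 and Ligase4-/- clones at -0.883 and -1.79, while the XLF-/- clones had opposite signs, -0.742 and 1.08. The 4.78 points of PAXX-/- clone 2 rested on library 1, with 45 inversional joins; its libraries were at 10.5, 1.304 and 2.50 points. Genotype accounted for 90.5% of the spread of this difference (p = 0.0169 by exact permutation, adjusted p = 0.0623), which missed the threshold; it passed with the joins of a clone pooled (adjusted p = 0.0457, exact permutation). Below 114495001, in the part farthest from the bait, WT had 0 of 277 inversional joins, which allows a share of up to 1.08%, and 32 deletional joins (0.559%). PAXX-/- clones had 3 and 5 inversional joins there (0.915% and 2.25%), and the 6 other clones 29 to 66 (2.83% to 5.77%). Deletional shares there were likewise higher in those 6 clones, 2.30% to 3.31%, against 0.578% and 0.605% in the PAXX-/- clones. They exceeded the inversional shares in both XLF-/-PAXX-/- clones and in Ligase4-/- clone 2.

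Single positions recurred across clones. The 8413 inversional joins used 4046 positions, and 250 of these were found in 5 or more libraries. The 5 found in the most libraries are shown with 10 bases of germline before the join in lower case and the first 10 bases of prey in capitals (plus strand, mm9).
114499383: agctcattgtAACCAGCCAA
114501640: ccacctcatcCCAGATTAGC
114499806: cagtccagccCAGCTCAGGC
114501548: caggcagcctAGCTTAGCCT
114499938: acaaccctgtCTAACCTACC
The first was found 14 times in 13 libraries of 7 clones, and the fifth 13 times in 11 libraries of 6 clones. None of the 5 begins at the T of an AGCT.

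Prey ends at AGCT were examined in joins without shared bases, direct or with insertions, in which no shared base blurs where the prey begins. The measure is the percent whose prey starts at the T of a germline AGCT, read along the prey, and it was added after the data were seen. The core holds 140 copies of AGCT (22.8 per kb), so that 2.28% of its positions are such a T, and the DNA below it holds 31 (4.56 per kb). Inversional joins of this kind used 60 of these positions, and the 3 found most often are shown with AGCT in capitals (plus strand, mm9).
114499905: acagcacAGCTtgcctaggt
114499988: ctaggtaAGCTcagccttgt
114500259: tttgtccAGCTctgctcagc
The first of these was found 4 times, in 3 libraries of 3 clones.

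In WT, 12.9%, 14.3% and 10.5% of inversional joins without shared bases began there, 13 of 104 in all. The PAXX-/- clones had 9.63% ± 5.40 and 9.73% ± 3.18 (SD, n = 3). XLF-/- clones had 1.17% ± 1.44 and 1.67% ± 2.89, XLF-/-PAXX-/- clones 3.10% ± 0.286 and 2.96% ± 1.31, and Ligase4-/- clones 2.64% ± 1.57 and 4.95% ± 3.27 (SD, n = 3 for each clone). Thus WT and PAXX-/- stood above the share of core positions, while the clone means of the others lay between 1.17% and 4.95%, on both sides of it. Genotype took up 98.0% of the sum of squares over clones (exact permutation p = 0.00317; Benjamini-Hochberg adjusted p = 0.00586 over 3 added tests). The counts are small, 3 to 13 joins in a clone. Among joins at or below 114500015 the genotype test gave 68.4% and did not pass (adjusted p = 0.25, exact permutation).

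Deletional joins began at AGCT more often than inversional joins in 9 of 9 clones, 17.7% against 12.6% in WT and 4.02% against 1.17% in XLF-/- clone 1. The inversional share was lower by a mean difference of -2.88 points (exact sign-flip p = 0.00391, adjusted p = 0.00586). With each position counted once per library the difference was -0.944 points and did not pass (adjusted p = 0.121, exact permutation). A wider measure, an AGCT within 5 bases to either side of the junction, among joins of every overlap, pointed the other way in 6 of 9 clones. It was 21.8% ± 1.08 in inversional and 17.2% ± 0.0849 in deletional joins of Ligase4-/- clone 1 (SD, n = 3), and 28.9% ± 2.65 and 29.4% ± 0.264 in WT (SD, n = 3). In the germline an AGCT lay that close at 15.1% of core positions and 8.94% of interval positions. No test was made on this measure.

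**Figure D5:**
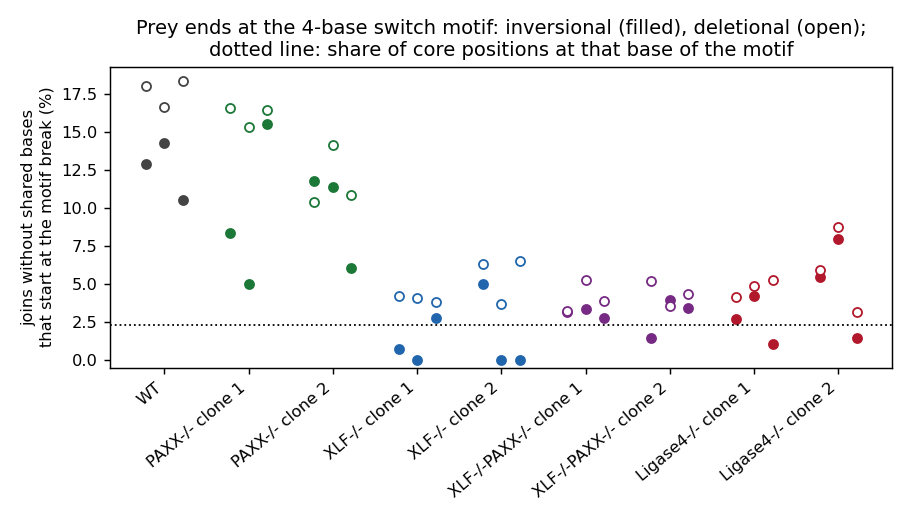
Percent of joins without shared bases whose prey starts at the last base of the 4-base switch motif AGCT, per library, for inversional (filled) and deletional joins (open). The dotted line is the 2.28% of core positions at that base; the 3 WT inversional points lie between 10.5% and 14.3%, and 3 XLF-/- libraries lie at 0.

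The bait side differed slightly with orientation. Bait sequence ran to base 67.3 on average in inversional and to base 69.1 in deletional joins, counted from 1 at the start of the bait alignment. The difference of -1.79 bases was negative in 9 of 9 clones and 26 of 27 libraries (exact sign-flip p = 0.00391, adjusted p = 0.0234). With bait ends before position 56 alone it was -0.496 bases and did not pass (adjusted p = 0.179, exact permutation). That setting cuts the measured length itself, so it cannot tell whether the difference holds.

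In most clones many inversional prey alignments stopped at a shared genome position, with the read going on in sequence that is not the mm9 germline there. The position was 114500098 in WT, PAXX-/- clone 1, both XLF-/- clones, XLF-/-PAXX-/- clone 2 and Ligase4-/- clone 2, where 3.12% to 4.37% of inversional prey ended. It was 114500015 in PAXX-/- clone 2 (5.41%) and 114500032 in XLF-/-PAXX-/- clone 1 (3.89%). In Ligase4-/- clone 1 no position stood out, the most frequent having 0.673%. WT stood out little, with 9 of 277 inversional prey ending at 114500098 and 6 at the next most frequent position. The reads are shown as 20 bases up to the end in lower case and the commonest continuation in capitals, each followed by the mm9 sequence of the same stretch.
Reads of XLF-/- clone 1 at 114500098: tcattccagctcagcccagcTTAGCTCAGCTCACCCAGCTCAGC
Germline at 114500098: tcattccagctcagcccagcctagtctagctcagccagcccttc
Reads of PAXX-/- clone 2 at 114500015: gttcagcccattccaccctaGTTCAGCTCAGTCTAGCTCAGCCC
Germline at 114500015: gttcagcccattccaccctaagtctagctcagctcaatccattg
Reads of XLF-/-PAXX-/- clone 1 at 114500032: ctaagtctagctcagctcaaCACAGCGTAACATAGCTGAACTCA
Germline at 114500032: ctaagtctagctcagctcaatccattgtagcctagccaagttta
The first 12 bases of the continuation were the same in 25 of 32 such reads of XLF-/- clone 1, 8 of 8 of PAXX-/- clone 2 and 48 of 50 of XLF-/-PAXX-/- clone 1. In WT they were the same in 5 of 8. The end in XLF-/-PAXX-/- clone 1 was that of neither PAXX-/- clone. Inversional joins also thinned out above 114500098 in most clones: in XLF-/-PAXX-/- clone 2 there were 149 in the 300 bp below it and 33 in the 300 bp above, and in Ligase4-/- clone 2 135 and 23. Deletional joins thinned out at the same place, with 1361 below and 404 above in XLF-/-PAXX-/- clone 2 and 983 and 278 in Ligase4-/- clone 2. WT had 28 and 28 inversional joins, and Ligase4-/- clone 1 had more above in both orientations, 306 against 195 inversional and 1801 against 1421 deletional. What these ends reflect was not tested. The values given above for joins at or below 114500015 leave out every join that starts past the lowest of them.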

How the data were processed

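LAM-HTGTS joins of 27 libraries, 3 from each of 9 CH12F3 clones, were read from 9 deposited tables that list 1 join per line with the positions of bait and prey on the read and the genome, as the authors' aligner placed them. Bowtie2 and the mm9 build are named in the submitters' processing notes. The other steps of read processing were not given in the sources used here. Libraries were told apart by a library column that does not give replicate numbers, so they are numbered by name only, and nothing ties them to separate cultures, so p-values may measure technical spread. No column was left unused for lack of a sample. Identical lines were kept (33 of the inversional joins, 0.392%).

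Shares were computed per library and averaged per clone. Tests were exact two-sided permutations over 9 clones (genotype sum of squares, 945 splits; sign flips, 512 patterns), over 4 against 3 clones (35 splits) and over libraries, with 95% intervals from inverting the test. Clones were treated as independent, which shared descent may break. Benjamini-Hochberg adjustment covered 24 planned clone tests, 3 added ones, 42 library tests and 6 tests within runs separately. The limit for a count of 0 uses 3 counts and covers counting error only. The members, measures and motifs were chosen with earlier results of these data known. Named positions were the 3 densest 500 bp stretches, the 5 positions in the most libraries and 1 example join for each of 5 overlaps, of which 1 is not reported here. Germline sequence was rebuilt from the 20-base windows deposited with each join, which did not conflict (12943 of 13328 positions); no genome was used here, and annotation of the mm9 interval was not analysed here. The tests were tried on simulated data. Alternatives were collapsed lines, each position once, gaps over 20 bases left out, prey of at least 50 bases, bait ends before position 56, the core alone, insertions left out, pooled joins, 1 library or clone left out, and, added after seeing the data, joins at or below 114500015. Python 3.11.15, numpy 2.4.6, pandas 2.3.3, scipy 1.17.1 and matplotlib 3.10.9 were used.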

Additional observations from a re-analysis of the deposited data

Results flagged for a closer look

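2 libraries stood far from the others of their genotype in the share of inversional joins below the core. In PAXX-/-, library 1 of clone 2 had 13.3%, and the other 5 libraries had 4.49% to 5.93%. That library held 45 inversional joins, the fewest of all. In Ligase4-/-, library 3 of clone 2 had 12.3%, and the other 5 had 5.86% to 7.77%. 24 groups of libraries were examined in this way, and chance flags about 1 in 20.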

How the results depend on the processing

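The longer microhomology, the higher microhomology share and the lower insertion share of inversional joins kept their direction and their call under all alternatives. The difference in below-core share between orientations lay near 0 and changed sign: -0.0438 points with identical lines collapsed, -1.85 with each position once, -0.0159 without gaps over 20 bases, -0.136 with prey of at least 50 bases, -0.107 with bait ends before position 56, -0.0552 with joins pooled, and -0.0858, -0.285, -0.571 and -0.108 without the clones WT, PAXX-/- 1, PAXX-/- 2 and XLF-/- 2. Its genotype test passed with prey of at least 50 bases (92.2% of the sum of squares), pooled joins (93.7%) and without WT (90.3%). With prey of at least 50 bases the genotype test of the microhomology share passed (96.5%). Without PAXX-/- clone 1 or 2 that of microhomology length passed (99.8% and 99.9%).

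The direct share difference between orientations passed at -1.55 points in the core, -2.29 without insertions and -1.35 without PAXX-/- clone 1. Among joins at or below 114500015 the genotype tests of the inversional share (98.2%), the direct share (99.7%) and the direct share difference (95.3%) and that difference itself (-2.03 points) passed. There the calls for AGCT were lost (68.4% by genotype, -0.71 points between orientations, -4.02 for XLF loss), as were PAXX-/- minus WT (-0.84 points) and XLF-/-PAXX-/- minus XLF-/- (1.47) in inversional share. Bait ends before position 56 lost the call for bait length (-0.496 bases), the length that this setting itself cuts. Also lost were the calls for XLF loss at AGCT (-3.23 points), and PAXX-/- minus WT (-1.40) and XLF-/-PAXX-/- minus XLF-/- (2.05) in inversional share. The same bait ends also lost the direct share of XLF-/-, XLF-/-PAXX-/- and Ligase4-/- minus WT, the microhomology share of Ligase4-/- minus WT (8.58), the below-core share of XLF-/- and XLF-/-PAXX-/- minus WT, and the insertion share (-7.84) and microhomology length of XLF-/- minus PAXX-/-. With all bait ends that insertion share differed by -8.98 points (-15.7 to -2.38; adjusted p = 0.026, exact permutation by library). Each position once lost AGCT between orientations (-0.944). XLF loss at AGCT missed with 1 clone fewer: -7.46, -8.93, -8.88, -8.07, -8.24, -8.71 and -8.67 points without WT, PAXX-/- 1, PAXX-/- 2, XLF-/- 1, XLF-/- 2, XLF-/-PAXX-/- 1 and XLF-/-PAXX-/- 2; fewer clones allow no smaller p.

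Reversed values, none of them called, were PAXX-/- minus WT direct share (0.971 with bait ends before position 56, 0.0582 without insertions, 0.433 at or below 114500015); XLF-/- minus PAXX-/- below-core share (-1.96 with bait ends before position 56); XLF-/-PAXX-/- minus Ligase4-/- direct (-1.43), microhomology (4.17) and insertion share (-2.73) with those bait ends; and, at or below 114500015, insertion share of XLF-/-PAXX-/- (4.75) and Ligase4-/- (1.42) minus WT, and direct share of XLF-/-PAXX-/- minus XLF-/- (-0.0792) and minus Ligase4-/- (-0.658). The causes were not tested.

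With 1 library left out, inversional shares minus WT ranged from -1.81 to -1.23 points in PAXX-/-, 6.25 to 7.10 in XLF-/-, 8.65 to 9.23 in XLF-/-PAXX-/- and 8.01 to 8.65 in Ligase4-/-, and every call against WT, in any measure, was lost without any 1 WT library. Below the core, XLF-/-PAXX-/- minus WT (2.90 to 4.54) kept its call in 1 of 9 such settings and Ligase4-/- minus WT (3.003 to 4.78) in 3. Without 1 library 3 further results passed: below core XLF-/- minus PAXX-/- (3.96) and XLF-/-PAXX-/- minus XLF-/- (-2.89), and insertion share of Ligase4-/- minus WT (-5.69). The ranges that held a change of sign were -2.07 to 0.786 (direct) and -3.33 to 0.0987 (microhomology) for PAXX-/- minus WT, -4.23 to 0.51 (insertion) for XLF-/-PAXX-/- minus WT, -0.0214 to 0.28 (direct) for XLF-/-PAXX-/- minus XLF-/-, -0.583 to 0.701 (below core) for XLF-/-PAXX-/- minus Ligase4-/-, and -0.296 to 0.217 (below core) between orientations. Between orientations the direct share (-1.37 to -0.875) and below core by genotype (85.3% to 93.3%) passed in some. No paired analysis was possible because the library column does not say which replicate number of the labels a library is; orientations were compared within libraries, and XLF-/- minus PAXX-/- also within shared runs. WT and PAXX-/- libraries held few inversional joins, 45 to 123, which limits the precision of their shares.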
